A study of Mus musculus with 9 samples.

Results

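The 10 antioxidant enzyme genes described here are Hmox1, Nqo1, Gclc, Gclm, Sod1, Sod2, Cat, Gpx1, Gpx4 and Prdx1, taken by their symbols from a count table of 27179 genes. They were taken by name and not by a threshold on their values, but with earlier results of these data known. All 10 had enough reads to be among the 17344 genes tested. RNA was sequenced in bulk from tissue punches of the hypothalamic paraventricular nucleus (PVN), which regulates food intake, energy expenditure and pituitary hormone release. The 9 punches came from 9 male wild-type C57BL/6J mice (C57BL/6 in the labels), with 3 independent mice in each of 3 groups. Control mice ate a control diet with 16% of calories from fat, which the sample labels call chow. HFD mice ate a high fat diet with 60% of calories from fat for 12 weeks. HFD+Mino mice ate the same high fat diet, and over the final 6 weeks their drinking water carried the antibiotic minocycline at 40 mg/kg/day. The mice were 5 weeks old when the diets began. The labels give postnatal day 35 for every sample, which matches that starting age. Tissue was taken at the end of the 12 weeks, so the mice were older by then. No group received minocycline on the control diet, so an effect of the drug alone and one under high fat diet cannot be told apart.

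These enzymes form the main defence of a cell against reactive oxygen species. Superoxide dismutases turn superoxide into hydrogen peroxide, and catalase, glutathione peroxidases and peroxiredoxins then reduce the peroxide to water. Glutathione peroxidases spend glutathione, whose rate-limiting synthesis step is carried out by glutamate-cysteine ligase, built from the catalytic subunit GCLC and the modifier subunit GCLM. Several of these genes, with heme oxygenase Hmox1 and the quinone reductase Nqo1 as textbook examples, are driven by the transcription factor NRF2 (gene Nfe2l2), which pairs with small MAF proteins on the antioxidant response element (ARE) and is held for degradation by KEAP1. In brain, astrocytes are known for a strong NRF2 program and for supplying neurons with glutathione precursors.

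Library totals ran from 17728590 reads in HFD replicate 1 to 42326213 in Control replicate 1. Punch composition varied among mice. The summed level of 6 PVN neuron markers (Avp, Oxt, Crh, Trh, Sim1 and Otp) was 27.8 to 2563 CPM (reads scaled to library size) in Control, 2479 to 3726 in HFD, and 37726, 31917 and 3104 in HFD+Mino replicates 1, 2 and 3. Control replicate 1 therefore held little PVN marker RNA, and it had a summed level of 5 oligodendrocyte markers of 27544 CPM where the other 8 libraries lay between 1956 and 6225. HFD+Mino replicates 1 and 2 stood apart from replicate 3 also in the 5 astrocyte markers (961, 1115 and 1506 CPM). The astrocyte sum was higher in every HFD library (2096 to 2217 CPM) than in the other 6, although no marker of it was called. Mitochondrial transcripts took 1.21% to 6.21% of reads, and ribosomal precursor RNA took 0.359% to 0.441% in HFD against at most 0.118% elsewhere. In such bulk tissue, fewer cells of a type and less RNA per cell cannot be told apart.

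The enzymes spanned a wide range of levels. Per kilobase of exon in Control, the lipid peroxidase Gpx4 was highest at 188 ± 66.6 CPM per kb (SD, n = 3). Prdx1 followed at 143 ± 53.1 and Gpx1 at 138 ± 30.5 CPM per kb, and the ranges of these 3 genes overlapped. Cat (37.2 ± 7.76), Sod1 (32.9 ± 9.57) and Gclc (26.2 ± 1.44 CPM per kb) formed a lower tier whose neighbouring ranges also overlapped. Below them came the mitochondrial superoxide dismutase Sod2 at 16.9 ± 6.09, Nqo1 at 9.12 ± 4.30 and Gclm at 5.79 ± 1.19 CPM per kb. Hmox1, which is induced by heme and stress, was lowest at 3.70 ± 0.987 CPM per kb, below the range of Gclm. In HFD the same peroxidases stayed on top (Gpx4 131, Gpx1 122 and Prdx1 118 CPM per kb), while Gclc moved from rank 6 to rank 8 at 4.36 and Gclm from rank 9 to rank 10 at 0.968 CPM per kb. In HFD+Mino, Gclc stood at rank 7 with 17.2 and Gclm at rank 10 with 3.92 CPM per kb, and their ranges overlapped those of Nqo1 and Hmox1, respectively.

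**Figure D1:**
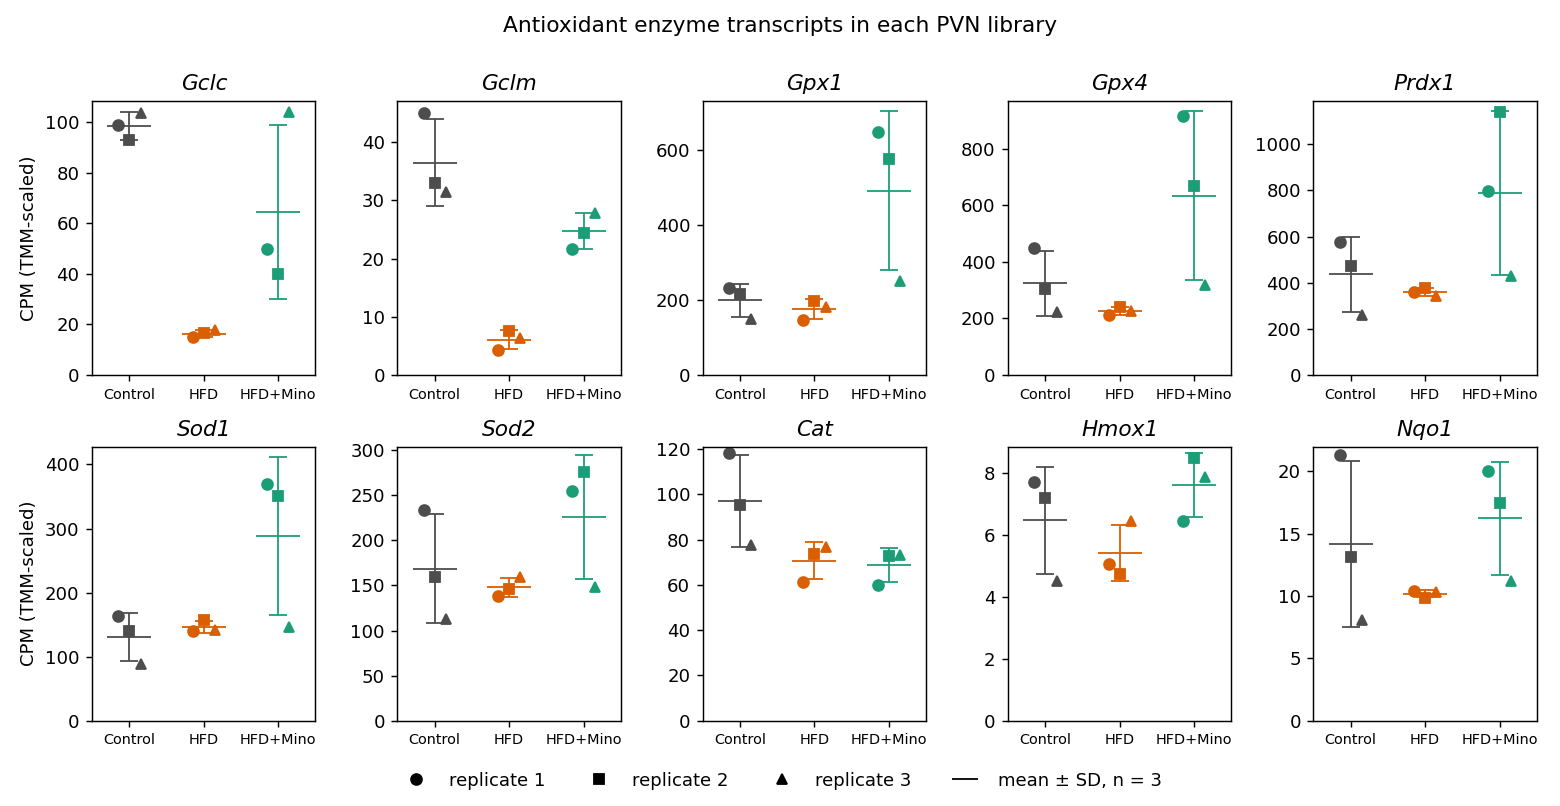
CPM (linear axes from 0) of each of the 10 enzymes in every library, with a marker shape for the replicate number, and a bar for the group mean ± SD (n = 3). For Gclc and Gclm the 3 HFD points sit below all other points, while for Gpx1, Gpx4, Prdx1 and Sod1 HFD+Mino replicates 1 and 2 sit above the rest.

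The first comparison asked which enzymes differed with high fat diet. Both subunits of glutamate-cysteine ligase fell in HFD, by close to 6-fold, and none of the other 8 enzymes passed the test. A gene was called when edgeR's Benjamini-Hochberg adjusted p was under 0.01 and the fold change at least 1.5. By this rule 2 of 10 enzymes were called, both lower, where 1.74% of all genes tested were called in either direction and 1.42% lower.

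Gclc (Entrez 14629, chr9:77754535-77794489, GRCm38) encodes the subunit that joins glutamate to cysteine. Its level was 99.0, 92.9 and 104 CPM in the Control mice. In HFD it was 15.0, 16.5 and 17.7 CPM, and in HFD+Mino 49.9, 40 and 104 CPM. Every HFD value lay below every Control and HFD+Mino value, and HFD+Mino replicate 3 was the one treated library as high as Control. The log2 fold change of HFD against Control was -2.59 ± 0.33 (SE; edgeR, adjusted p = 0.00153), which is 6.00-fold lower. The call was lost when any HFD library was left out, with adjusted p of 0.0174, 0.0142 and 0.0145 without replicates 1, 2 and 3, while the log2 fold change stayed between -2.65 and -2.52.

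Gclm (Entrez 14630, chr3:122245487-122267215, GRCm38) encodes the modifier subunit, which raises the affinity of the enzyme for glutamate. Its level was 45.0, 32.9 and 31.4 CPM in Control. In HFD it was 4.32, 7.63 and 6.32 CPM, from 86, 263 and 254 reads, and in HFD+Mino 21.7, 24.4 and 27.9 CPM. The 3 groups did not overlap, with Control highest, HFD+Mino between and HFD lowest. The log2 fold change of HFD against Control was -2.57 ± 0.28 (edgeR, adjusted p = 0.000582), 5.96-fold lower, and the call held without any single library (adjusted p 0.000333 to 0.00789). The exons of Gclm overlap an antisense transcript by 296 nt and a pseudogene by 244 nt, and the library kit does not mark strand. Over all genes tested, 9.62% had HFD below the 6 other libraries, and among the 10 enzymes only Gclc and Gclm did.

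The subunits kept a similar proportion to each other. The ratio of Gclc to Gclm CPM was 2.20, 2.82 and 3.31 in Control, 3.47, 2.16 and 2.81 in HFD, and 2.30, 1.64 and 3.73 in HFD+Mino. The groups overlapped in this ratio, so the difference between subunits was not larger than the spread among mice. The summed astrocyte markers were higher in each HFD library, whereas Gclc and Gclm were lower there. The part of tissue composition and of the ribosomal precursor content in these differences was not tested.

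The promoters of the enzymes were searched for the ARE core TGACNNNGC and for the AP-1 motif TGANTCA, on both strands, in windows of 250 bases before to 50 after a transcript start (RefSeq, GRCm38.p6). Gclc and Hmox1 were not searched, because the table used held no window for them. The other 8 enzymes had 11 windows, 4 of them of Gpx4, and 3 of the 11 windows had an ARE core, where 12.4% of 32851 windows of all genes had one. The enzymes were Gclm, Sod1 and Prdx1. The stretch up to the annotated gene start is shown for each of the 3, on the plus strand, with capitals marking the ARE core, which reads on the minus strand as TGACGGTGC, TGACCACGC and TGACTCAGC, respectively.
Gclm promoter (chr3:122245307-122245486): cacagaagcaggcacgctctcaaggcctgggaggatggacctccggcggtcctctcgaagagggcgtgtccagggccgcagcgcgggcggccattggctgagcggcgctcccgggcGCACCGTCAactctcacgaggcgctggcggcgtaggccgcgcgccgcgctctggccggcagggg
Sod1 promoter (chr16:90220512-90220761): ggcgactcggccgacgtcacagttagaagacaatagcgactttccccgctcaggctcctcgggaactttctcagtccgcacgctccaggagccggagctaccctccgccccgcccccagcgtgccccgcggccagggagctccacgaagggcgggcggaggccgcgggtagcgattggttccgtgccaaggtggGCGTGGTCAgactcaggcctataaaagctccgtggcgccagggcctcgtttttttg
Prdx1 promoter (chr4:116685349-116685598): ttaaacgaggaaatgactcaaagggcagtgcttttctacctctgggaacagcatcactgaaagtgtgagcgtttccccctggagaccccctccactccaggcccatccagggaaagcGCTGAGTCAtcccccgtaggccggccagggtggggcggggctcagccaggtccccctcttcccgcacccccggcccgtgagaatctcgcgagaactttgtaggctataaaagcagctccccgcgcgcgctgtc
The core began 134 bases before the transcript start of the window in Gclm, 56 in Sod1 and 133 in Prdx1. In Gclm the annotated gene start, where the printed stretch ends, lies 70 bases before that transcript start, and the core began 64 bases before the gene start. In Prdx1 it contained an AP-1 motif, which 7.81% of all windows held. Gclm was called lower in HFD, while Sod1 and Prdx1 did not pass the test. These matches describe letters and not bound sites.

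The remaining 8 enzymes did not pass the test of HFD against Control. Cat, the peroxisomal catalase, was 118, 95.3 and 77.8 CPM in Control and 61.3, 73.9 and 76.9 CPM in HFD. All HFD values lay below all Control values, by a narrow margin, and the log2 fold change was -0.46 with a 95% interval of -0.94 to 0.02 (edgeR, adjusted p = 0.266). Gpx4 had a log2 fold change of -0.52 with an interval of -1.31 to 0.27, and Nqo1 one of -0.48 with -1.25 to 0.30. For Sod1, the cytosolic superoxide dismutase, it was 0.16 with an interval of -0.58 to 0.90. Hmox1, Sod2, Gpx1 and Prdx1 had log2 fold changes of -0.25, -0.19, -0.18 and -0.28, and their intervals reached down to between -1.07 and -0.85 and up to between 0.43 and 0.54. Every one of these 8 intervals leaves room for a change beyond 1.5-fold in one direction or the other, so equal levels were not shown. Adjusted p of the 8 genes ranged from 0.266 to 0.824. The median log2 fold change over the 10 enzymes was -0.37, beside 0.00434 over all genes tested, and 9 of 10 values were below 0, beside 49.7% of all genes. With each library's trend on exon length removed, the median was -0.21, and Hmox1 and Gpx1 turned to values just above 0.

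**Figure D2:**
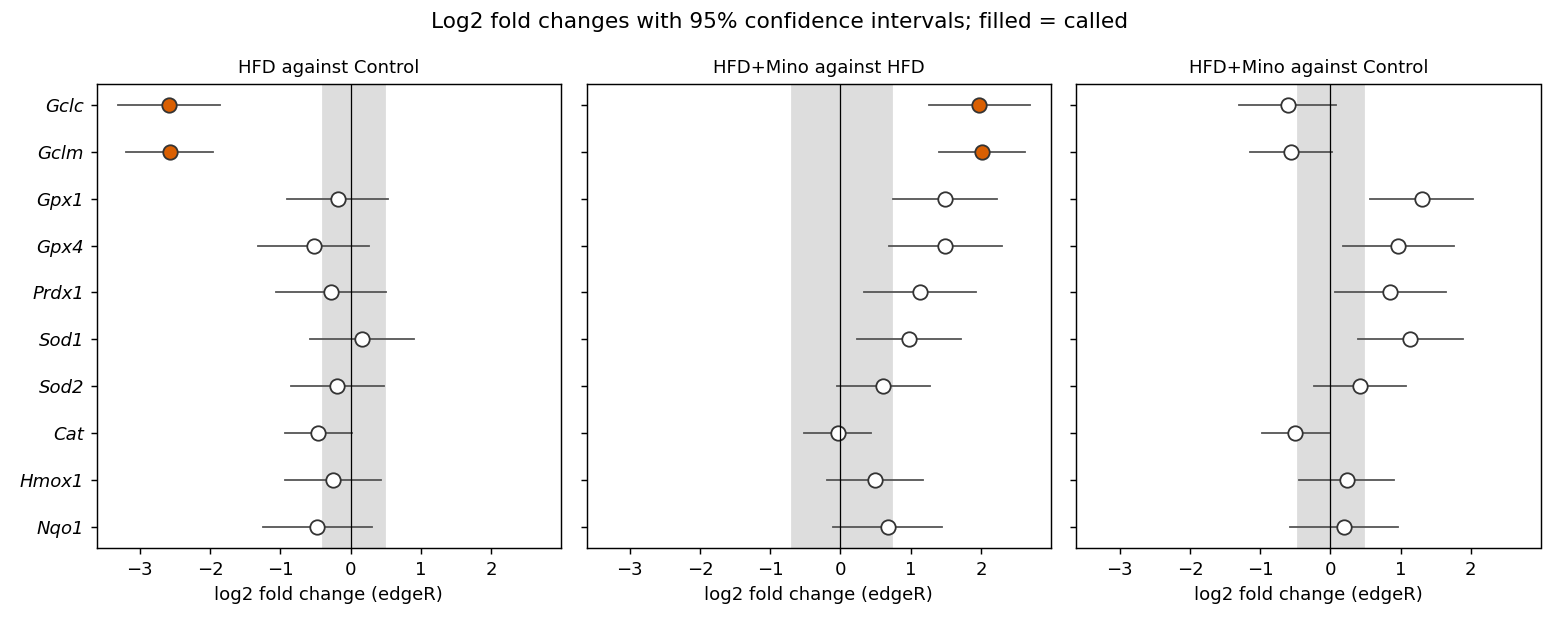
Log2 fold changes (edgeR) of the 10 enzymes in the 3 pairwise comparisons, with 95% confidence intervals as lines, filled points for called genes and a grey band for the middle 50% of all genes tested. Gclc and Gclm are filled at -2.59 and -2.57 in HFD against Control and at 1.98 and 2.01 in HFD+Mino against HFD, and no point is filled in HFD+Mino against Control.

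The second comparison asked which enzymes differed with minocycline under high fat diet. The ligase subunits were again the enzymes called, this time higher in HFD+Mino: 2 of 10 were called, where 4.15% of all genes tested were called in either direction and 1.98% higher. Gclc had a log2 fold change of 1.98 ± 0.33 (edgeR, adjusted p = 0.00531), 3.94-fold higher, and Gclm one of 2.01 ± 0.28 (adjusted p = 0.00257), 4.04-fold higher. The Gclm call was lost without any of the 3 HFD libraries (adjusted p = 0.0174, 0.0119 and 0.0220). The Gclc call was lost without any HFD library (0.0313, 0.0303 and 0.0338) and when Control replicate 2 (0.0140) or the treated replicate 1 (0.0153) was left out. Without HFD+Mino replicate 3, whose Gclc level was the highest of its group, the log2 fold change of Gclc was 1.45 (adjusted p = 0.000857).

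The peroxidases formed a second group, with larger means in HFD+Mino but adjusted p above 0.01. Gpx1 (chr9:108339080-108340342), the main cytosolic glutathione peroxidase, was 232, 217 and 149 CPM in Control. It was 147, 198 and 180 CPM in HFD and 647, 576 and 251 CPM in HFD+Mino. All HFD+Mino values lay above all 6 others, although replicate 3 was close to Control. The log2 fold change against HFD was 1.49 ± 0.34 (edgeR, adjusted p = 0.0132).

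Gpx4 (chr10:80047166-80056439), which reduces lipid peroxides in membranes, was 448, 302 and 221 CPM in Control, 212, 240 and 226 CPM in HFD and 915, 667 and 320 CPM in HFD+Mino. Its HFD+Mino values were above all HFD values, with replicate 3 inside the Control range, and the log2 fold change against HFD was 1.49 ± 0.37 (edgeR, adjusted p = 0.0165). Prdx1 (chr4:116685599-116700000), an abundant cytosolic peroxiredoxin, was 578, 471 and 260 CPM in Control, 362, 375 and 340 CPM in HFD and 798, 1138 and 428 CPM in HFD+Mino. Here too HFD+Mino replicate 3 was above the HFD values and inside the Control range, with a log2 fold change of 1.13 ± 0.36 against HFD (edgeR, adjusted p = 0.0395). With the adjusted p threshold at 0.05, these 3 genes joined Gclc and Gclm, which makes 5 of 10 enzymes higher where 14.6% of all genes tested were.

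The superoxide dismutases split within HFD+Mino. Sod1 (chr16:90220762-90226333) was 163, 141 and 88.8 CPM in Control, 140, 157 and 142 CPM in HFD and 369, 350 and 146 CPM in HFD+Mino. Replicates 1 and 2 of HFD+Mino were above every other library, and replicate 3 lay inside the HFD range. The log2 fold change against HFD was 0.98 ± 0.34 (edgeR, adjusted p = 0.0530). Sod2 (chr17:13007839-13018119), which works in the mitochondrial matrix, was 234, 159 and 113 CPM in Control, 139, 146 and 160 CPM in HFD and 255, 276 and 148 CPM in HFD+Mino, and its groups overlapped (log2 fold change 0.61, 95% interval -0.05 to 1.27, edgeR adjusted p = 0.149).

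The lowly expressed NRF2 targets Hmox1 and Nqo1 and the catalase gene were not called. Hmox1 (chr8:75093618-75100593) was 7.72, 7.20 and 4.50 CPM in Control, 5.07, 4.76 and 6.45 CPM in HFD and 6.47, 8.51 and 7.87 CPM in HFD+Mino. Nqo1 (chr8:107388225-107403205) was 21.3, 13.2 and 8.04 CPM in Control, 10.4, 9.83 and 10.3 CPM in HFD and 20.0, 17.5 and 11.2 CPM in HFD+Mino. For both genes the HFD+Mino values were above the HFD values, by a narrow margin at the closest pair. The Control values of Nqo1 spanned both groups, while for Hmox1 HFD+Mino replicates 2 and 3 lay above every Control value. The log2 fold changes against HFD were 0.49 (interval -0.20 to 1.17) for Hmox1 and 0.67 (interval -0.11 to 1.45) for Nqo1. Cat (chr2:103453904-103485153) was 60.0, 72.7 and 73.4 CPM in HFD+Mino, within or just below the HFD range, with a log2 fold change of -0.04 and an interval of -0.52 to 0.44.

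The number of enzymes called in HFD+Mino against HFD depended on single libraries. It was 0 when any 1 of the 3 HFD libraries was left out and 1 without Control replicate 2 or HFD+Mino replicate 1. Without an HFD library, the log2 fold changes stayed at 1.91 to 2.04 for Gclc and 1.82 to 2.21 for Gclm. The shares of all genes called in these fits are not given here, so the counts do not set the enzymes apart from other genes. Without HFD+Mino replicate 3, 6 of 10 were called higher in HFD+Mino than in HFD (Gclc, Gclm, Gpx1, Gpx4, Prdx1 and Sod1). In either direction, 21.4% of all genes tested were then called. The same 6 enzymes passed when same-numbered Control and HFD+Mino mice were matched by a block. That fit called 25.6% of all genes in either direction. That block was chosen after the data were seen, and the labels do not pair the mice. Replicates 1 and 2, which carried the high values of Gpx1, Gpx4, Prdx1 and Sod1, also had the PVN marker sums of 37726 and 31917 CPM, ependymal marker sums of 530 and 618 CPM beside 284 in replicate 3, red blood cell marker sums of 148 and 118 CPM beside 23.0, and mitochondrial shares of 4.68% and 6.21% beside 3.20%. The part of these features in the enzyme values was not tested. The values also changed, to differing degrees, with each library's trend on exon length removed. The log2 fold change of Gpx1 was then 0.51 and that of Gpx4 0.67. Prdx1 was at 1.00, Sod1 at 1.13, Gclc at 2.01 and Gclm at 2.43. Sod2, which has long annotated exons, went from 0.61 to 1.20 (edgeR, adjusted p = 0.0344) in HFD+Mino against HFD. In HFD against Control, Sod2 went from -0.19 to -0.62 (edgeR, adjusted p = 0.334). The part of gene length in these values was not tested.

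**Figure D3:**
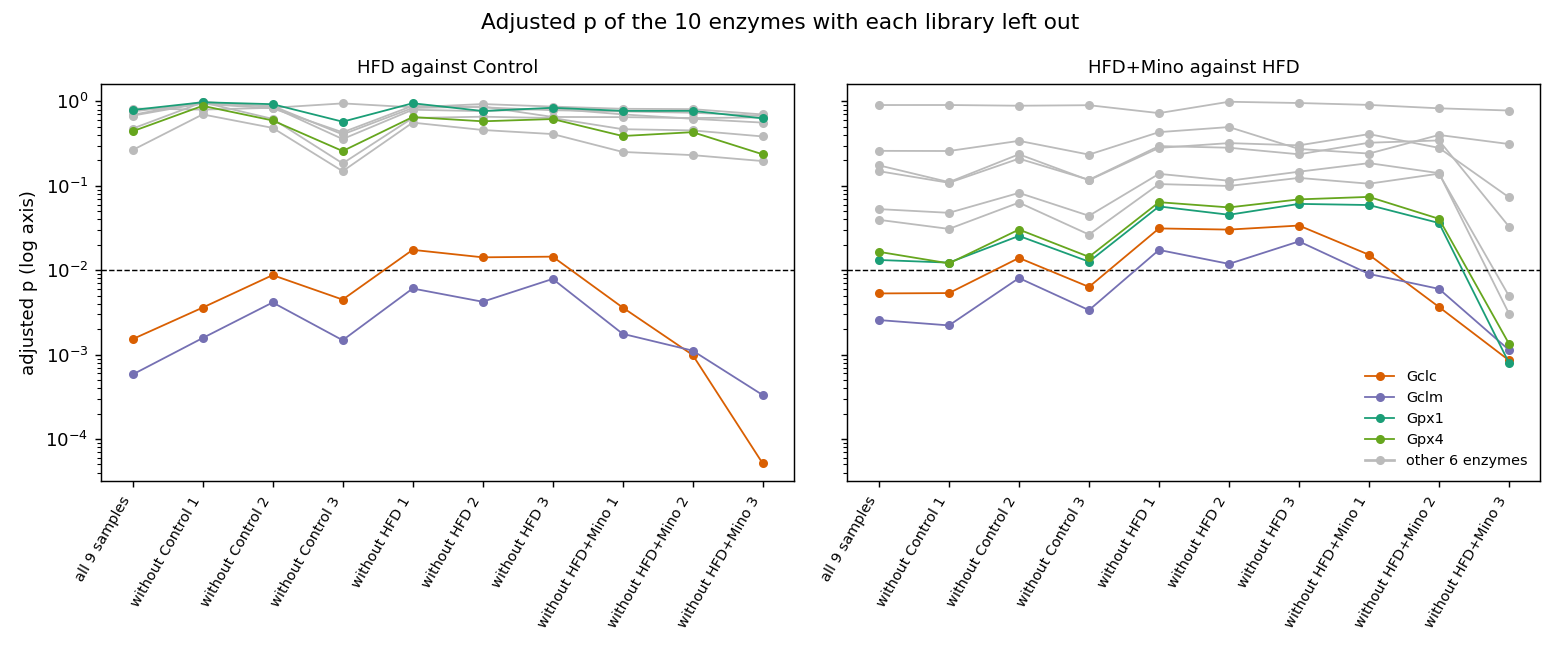
Adjusted p (edgeR, log axis) of the 10 enzymes with all 9 libraries and with each library left out in turn, for HFD against Control and for HFD+Mino against HFD, with lines joining the values of a gene and a dashed line at 0.01. Gclm stays under 0.01 at every setting in HFD against Control. In HFD+Mino against HFD, 6 genes lie under 0.01 when HFD+Mino replicate 3 is left out. Of these, Gclc and Gclm are also under 0.01 with all 9 libraries.

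Across all 3 groups, the 3-way test asked which genes had HFD highest or lowest, at an adjusted p under 0.01 and a distance of 1.5-fold or more from the average of the group means. Gclc and Gclm were called lower, 2 of 10 enzymes, where 2.13% of all genes tested were called in either direction and 1.21% lower. The log2 distance of HFD from the mean was -1.52 for Gclc (edgeR, adjusted p = 0.00365) and -1.53 for Gclm (adjusted p = 0.00167). Both calls were lost without any HFD library (adjusted p = 0.0345, 0.0337 and 0.0340 for Gclc and 0.0168, 0.0136 and 0.0224 for Gclm), and that of Gclc without Control replicate 2 (0.0163). Without HFD+Mino replicate 3, Gpx1 (distance -0.66, adjusted p = 0.000922) and Gpx4 (distance -0.78, adjusted p = 0.00246) were called as well.

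No enzyme passed the test between HFD+Mino and Control. edgeR called 0 of 10 enzymes, beside 0% of all genes tested. DESeq2 also called 0 of 10 enzymes, beside 1.07% of 25025 genes with any read, a larger base than the 17344 tested by edgeR. By edgeR, 5 of 10 enzymes and 21.3% of all genes had an unadjusted p under 0.05. Gclc was at -0.61 (95% interval -1.30 to 0.08) and Gclm at -0.56 (interval -1.14 to 0.02) on the log2 scale. Gpx1 was at 1.30 (interval 0.57 to 2.04), Sod1 at 1.14 (0.39 to 1.89), Gpx4 at 0.97 (0.17 to 1.76) and Prdx1 at 0.85 (0.06 to 1.64). Cat was at -0.50 (interval -0.98 to -0.02), with every HFD+Mino value below every Control value. These intervals are unadjusted for the number of genes. When same-numbered mice of these groups were matched by a block, 3 of 10 enzymes were called higher (Sod1, Gpx1 and Gpx4). In either direction, 3.18% of all genes were called. That block was chosen after the data were seen. Without HFD+Mino replicate 3, Sod1 and Gpx1 were called higher and Gclc lower (adjusted p = 0.00530, 0.00393 and 0.00624), where 6.28% of all genes were called.

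The genes around these enzymes were read from 8 lists of the antioxidant system with 94 genes, of which 92 were tested. The 3-way test called 1 of 92 (beside 2.13% of all genes), higher in HFD. HFD against Control called 1 (beside 1.74%), lower, and HFD+Mino against HFD called 2 (beside 4.15%), of which 1 was higher and 1 lower. These shares of the 92 genes were no larger than those of all genes. The median log2 fold change over the 92 genes was -0.27 in HFD against Control and 0.34 in HFD+Mino against HFD, and 61 of 92 values were above 0 in the latter, beside 50.3% of all genes. With the length trend removed, these medians were -0.19 and 0.26 and 66 of 92 values were above 0.

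**Figure D4:**
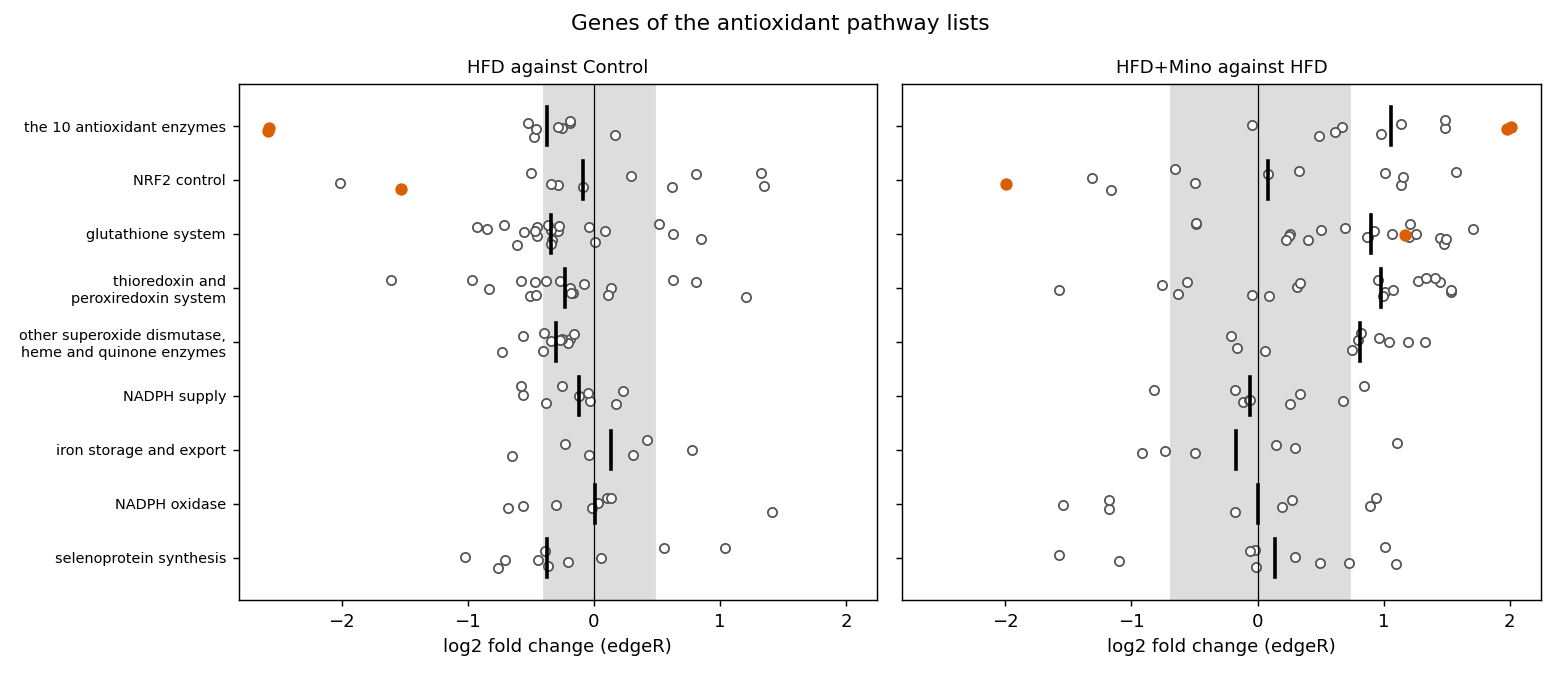
Log2 fold changes (edgeR) of the 10 enzymes and of the tested genes of the 8 pathway lists in HFD against Control and HFD+Mino against HFD, with filled points for called genes, a black bar for the median of a list and a grey band for the middle 50% of all genes tested. The enzymes have medians of -0.37 and 1.05, and the glutathione list lies near them at -0.34 and 0.90.

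Among the 11 genes that control NRF2, Nfe2l1 was the gene called in the 3-way test. It encodes NRF1, a relative of NRF2 that is anchored in the endoplasmic reticulum and drives proteasome genes. Its level was 87.7, 109 and 186 CPM in Control, 316, 314 and 345 CPM in HFD and 71.6, 60.0 and 112 CPM in HFD+Mino. HFD was above all 6 others, a direction opposite to that of Gclc and Gclm, with a log2 distance of 1.12 (edgeR, adjusted p = 0.00785). In HFD against Control, Nfe2l1 was not called (log2 fold change 1.35, edgeR, adjusted p = 0.0308). Besides the 3-way test, it was called lower in HFD+Mino than in HFD (3.99-fold, edgeR, adjusted p = 0.00471). Both calls were lost without any of the HFD libraries, Control replicate 2 or HFD+Mino replicates 1 or 2, with adjusted p up to 0.0527 and 0.0310.

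Nfe2l2 itself was 37.7, 21.2 and 21.1 CPM in Control, 20.4, 24.5 and 20.8 CPM in HFD and 28.6, 24.9 and 28.8 CPM in HFD+Mino, with overlapping groups (log2 fold change of HFD against Control -0.29, edgeR adjusted p = 0.577). Keap1 was 47.2, 57.3 and 73.2 CPM in Control, 98.3, 108 and 105 CPM in HFD and 35.3, 33.0 and 70.8 CPM in HFD+Mino. HFD was above all 6 others for Keap1, but neither comparison passed at 0.01 (0.81 against Control with adjusted p = 0.155, and -1.16 for HFD+Mino against HFD with adjusted p = 0.0198, edgeR). Mafg, which encodes a small MAF partner of NRF2 and was singled out after its values were seen, was 28.8, 31.1 and 36.9 CPM in Control, 10.3, 11.7 and 11.6 CPM in HFD and 22.6, 17.2 and 34.1 CPM in HFD+Mino. It fell in HFD against Control by 1.53 on the log2 scale (log2 fold change -1.53 ± 0.28, edgeR adjusted p = 0.00954), and the call was lost in 7 of 9 fits that left out 1 library, including each HFD and Control library, with adjusted p up to 0.0648. Exons of Mafg share 124 nt with Sirt7 on the same strand. The rest of this list was mixed in HFD against Control. Cul3 was at -2.01 (edgeR, adjusted p = 0.0115), and Mafk, another small MAF gene, was at 0.62 (adjusted p = 0.534). Of the 11 genes, 5 had log2 fold changes above 0, and the median was -0.084.

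In the glutathione system, edgeR called 1 of 20 genes in HFD+Mino against HFD, beside 4.15% of all genes, and 11 had an unadjusted p under 0.05, beside 41.3% of all genes. DESeq2 called 10 of the 20, all higher, beside 14.4% of all genes. Gsto1, a glutathione transferase of the omega class, was 79.9, 82.1 and 58.1 CPM in Control, 54.2, 72.5 and 55.3 CPM in HFD and 156, 120 and 133 CPM in HFD+Mino. It was higher in every HFD+Mino library than in all others, with a log2 fold change of 1.17 ± 0.23 against HFD (edgeR, adjusted p = 0.00889). The call was lost in 6 of 9 fits without 1 library, among them each HFD library (adjusted p up to 0.0551), and with the trend on exon length removed the value was 0.59 (adjusted p = 0.0509). Gstt1, another glutathione transferase, was at 1.21 (edgeR, adjusted p = 0.0128), with 107, 113 and 56.1 CPM in HFD+Mino replicates 1, 2 and 3. Replicate 3 lay inside its Control range of 43.0 to 57.2 CPM. In the thioredoxin and peroxiredoxin system, edgeR called 0 of 18 genes in HFD+Mino against HFD, where 12 had an unadjusted p under 0.05, beside 41.3% of all genes, and DESeq2 called 5, all higher, beside 14.4%. Prdx4, a peroxiredoxin of the endoplasmic reticulum, and Prdx2 of the cytosol were at 1.54 (edgeR, adjusted p = 0.0116) and 1.40 (adjusted p = 0.0124) in HFD+Mino against HFD. In HFD+Mino replicates 1, 2 and 3, Prdx4 was 158, 166 and 61.8 CPM and Prdx2 was 1113, 1051 and 487 CPM. Replicate 3 of Prdx2 lay inside the Control range of 358 to 560 CPM. The medians of the thioredoxin and peroxiredoxin list were -0.23 in HFD against Control and 0.98 in HFD+Mino against HFD.

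Of 10 other superoxide dismutase, heme and quinone enzymes, edgeR called 0 in HFD+Mino against HFD, where 7 had an unadjusted p under 0.05, beside 41.3% of all genes, and DESeq2 called 3, beside 14.4%. This list had medians of -0.30 in HFD against Control and 0.81 in HFD+Mino against HFD. Park7, the Parkinson disease protein DJ-1, was at 1.33 (edgeR, adjusted p = 0.0135) and the carbonyl reductase Cbr1 at 1.04 (adjusted p = 0.0192) in HFD+Mino against HFD. In contrast to these lists, the 9 genes listed for NADPH supply had medians of -0.11 and -0.06. The mitochondrial dehydrogenase gene Idh2 was at 0.84 (edgeR, adjusted p = 0.0175) and the transhydrogenase gene Nnt at -0.83 (adjusted p = 0.0362). Whether Nnt RNA gives a working enzyme in these C57BL/6J mice was not tested. The 6 iron genes had medians of 0.14 and -0.17, with the ferritin light chain Ftl1 at 1.11 (adjusted p = 0.0217) and the iron regulatory protein Aco1 at -0.92 (adjusted p = 0.0176). Among the 8 tested NADPH oxidase genes, a source of superoxide, Cyba was at 0.94 (adjusted p = 0.0334) and Nox4 at -1.18 (adjusted p = 0.154), and the medians were 0.0124 and 0.00521. Among these short transcripts, removal of the length trend left Ftl1 at 0.092, Gstt1 at 0.31 and Cyba at -0.16.

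Glutathione peroxidases 1 and 4 carry selenocysteine, and of 10 genes of selenoprotein synthesis edgeR called 0 in HFD+Mino against HFD, where 5 had an unadjusted p under 0.05, near the 41.3% of all genes, and DESeq2 called 4, beside 14.4%, 2 of them higher. Sepsecs, the synthase that makes selenocysteine on its tRNA, was at -1.58 (edgeR, adjusted p = 0.0120) and Lrp8, a receptor that takes up selenoprotein P, at 0.72 (adjusted p = 0.0367) in HFD+Mino against HFD. The medians of this list were -0.37 in HFD against Control and 0.14 in HFD+Mino against HFD.

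The genes whose log2 CPM followed the enzymes most closely over the 9 libraries were taken for the 3 enzymes with the smallest p in the 3-way test. For Gclm they were Lamp1 (Pearson r = 0.992), Ppm1a (0.992) and Siah2 (0.991). For Gclc they were Gsk3a (0.997), Mxi1 (0.996) and Smap1 (0.994), and for Gpx1 Ndufaf8 (0.997), Cox19 (0.997) and Ndufaf3 (0.994). All 9 are picked as the highest of 17344 genes over libraries that differ in group and depth, so these values are descriptions of likeness.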

How the data were processed

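RNA from PVN punches was sequenced in 9 mice (3 per group) with an oligo(dT)-primed, unstranded kit. The authors aligned reads to mm10 with HISAT2 and deposited one table of raw read counts per gene from featureCounts, with no normalization. Versions and the handling of reads that map to several places are not given in the sources used here. Totals per library ran from 17728590 to 42326213. All 9 libraries were distinct, and groups came from the sample titles.

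Here counts were filtered by filterByExpr, scaled by TMM and fitted with edgeR 4.0.16 (quasi-likelihood F test, R 4.3.3) on all 9 samples with group as the term. The 4 comparisons were the 3-way test and the 3 pairwise contrasts, with Benjamini-Hochberg adjustment over all 17344 genes tested, and calls needed FDR under 0.01 and 1.5-fold. Standard errors and 95% intervals come from the F statistic. The scripts were tested on simulated data. The enzymes and gene lists were chosen with earlier results of these data known. All 10 enzymes were named, with Nfe2l2 and Keap1, the genes of each pathway list called in the 3-way test (the 2 with the smallest p where none was) and the 3 genes most like each of 3 enzymes. Mafg was added after its values were seen. Exon length, GC content and positions came from GRCm38 annotation, and 21572 of 27179 genes had them.

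Same-numbered Control and HFD+Mino samples deviated together from their group means (correlations 0.135, 0.163 and 0.292). Same-numbered samples of the other pairs of groups did not (-0.152 to -0.00624). Numbers were those of the sample titles, but the columns of HFD replicates 1, 2 and 3 are numbered 3, 4 and 5. By column number HFD replicate 1 would match Control and HFD+Mino replicate 3 (correlations 0.0385 and 0.0171), so the block over all 9 samples rests on the title numbers. This likeness was seen in the counts only, and the labels do not pair the mice. The correlations are not independent of each other, because the deviations were taken from the same group means. Alternatives were DESeq2 1.42.0, RLE scaling, no filter, no ribosomal or mitochondrial RNA, each library left out, thinning to the smallest library, replicate blocks, models of 6 samples, trends on length and GC removed and FDR under 0.05. Marker lists with summed levels but no gene called in the 3-way test were PVN neuron, neuron, astrocyte, oligodendrocyte, microglia, endothelial, ependymal, choroid plexus and red blood cell.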

Additional observations from a re-analysis of the deposited data

How the results depend on the processing

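Gclc and Gclm kept their direction and their calls in HFD against Control, in HFD+Mino against HFD and in the 3-way test under DESeq2, RLE scaling, no filter on low counts, removal of ribosomal and mitochondrial RNA, thinning and removal of the length and GC trends. In the model of 6 samples Gclc in HFD+Mino against HFD was no longer called (adjusted p = 0.0115, edgeR). With each library left out, the number of the 10 enzymes called ran from 0 to 4 in the 3-way test and 1 to 2 in HFD against Control. It ran from 0 to 6 in HFD+Mino against HFD and 0 to 3 in HFD+Mino against Control. The counts of 6 and 3 came without HFD+Mino replicate 3, where 21.4% and 6.28% of all genes were called in either direction. Shares for the other fits are not given here, so these ranges do not set the enzymes apart from other genes. In HFD+Mino against HFD, DESeq2 called 4 enzymes (14.4% of 25025 genes) and no filter 4 (6.64% of 27179 genes). The model of 6 samples called 1 (2.43% of 16742 genes) and FDR under 0.05 called 5 (27.4% of 17344 genes). The replicate block in all 9 samples gave 2, 2, 2 and 0 enzymes in the 4 comparisons (2.81%, 1.64%, 7.89% and 0% of all genes). The block in Control and HFD+Mino within the model of 9 samples, chosen after seeing the data, called 6 in HFD+Mino against HFD (25.6%) and 3 in HFD+Mino against Control (3.18%), and its 3-way count was 3 (13.2%).

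Directions that reversed belonged to genes that were not called. With the length trend removed, the log2 distance of HFD in the 3-way test was 0.068 for Hmox1, 0.00752 for Nqo1 and 0.020 for Cat. HFD against Control became 0.00715 for Hmox1 and 0.070 for Gpx1, HFD+Mino against HFD became -0.20 for Hmox1, -0.20 for Nqo1 and -0.16 for Cyba, and HFD+Mino against Control became -0.19 for Hmox1 and -0.37 for Nqo1. With the trend on the GC-richest 100 nt removed, also chosen after seeing the data, the distance of Sod1 was 0.022 and Nqo1 in HFD+Mino against Control was -0.039. With the GC trend removed, Cat in HFD+Mino against HFD was 0.013. With 1 library left out, HFD against Control ranged from -0.053 to 0.35 for Sod1, -0.41 to 0.12 for Sod2 and -0.43 to 0.045 for Nfe2l2, HFD+Mino against HFD from -0.14 to 0.049 for Cat, and HFD+Mino against Control from -0.090 to 0.61 for Nqo1. The causes were not tested. Hmox1 had 101 to 311 reads per library.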
